A study of Mus musculus with 12 samples.

Results

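The 77 genes described here encode the proteins of the cytosolic ribosome, 46 of the large subunit (Rpl) and 31 of the small subunit (Rps), and were measured by RNA sequencing in mouse spleen. They were chosen by symbol, as the rows of the expression table named Rpl or Rps followed by a, p0 to p2 or a number with an optional a, l or x, with at least 100 counts summed over 12 libraries. They are 77 of 19376 rows, or 0.397% of the table. The symbol pattern matched 79 rows, and the 2 left out by the count limit were Rpl39l with 21 counts and Rpl3l with 65, paralogues of narrow expression. Just inside the limit stood Rps18 with 120 counts, followed by Rpl29 with 974 and Rpl21 with 1501. All 77 were among the 15079 genes tested.

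The 12 libraries form 4 groups of 3. Controls had no treatment, the AOS group received alginate oligosaccharides (short chains from the seaweed polymer alginate) at 10 mg/kg over 5 weeks, the busulfan group received 1 dose of this alkylating drug at 40 mg/kg, and the last group received that dose of busulfan and then the AOS course. The strain label reads IRC mouse, the tissue label reads Cells although the extraction text names spleen, and age and sex are not stated. Nothing says that the 3 libraries of a group come from separate animals, so p-values cover only the variation among libraries, which may be technical. The sample code SBA0 is not the B0 of the design text and was taken to mean busulfan with no AOS. Library totals ran from 15051297 to 16241883 counts. Markers of B cells, T cells and red pulp macrophages, which define spleen, were detected in all groups. Pancreatic acinar genes summed to 2928 to 47041 CPM in AOS and 18.7 to 2497 CPM elsewhere.

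A ribosome holds 1 copy of nearly every one of these proteins, assembled on ribosomal RNA in the nucleolus, and growing or dividing cells make large amounts of all of them. Their mRNAs begin with a run of pyrimidines, the 5' terminal oligopyrimidine (TOP) motif, through which the kinase mTOR sets their translation. Free Rpl5 and Rpl11, the carriers of 5S RNA, bind Mdm2 and stabilise p53 when assembly fails, and loss of 1 allele of several members causes Diamond-Blackfan anaemia in humans. Busulfan crosslinks DNA and depletes blood-forming cells, a setting in which p53 targets are known to be induced.

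The start regions of 7 members whose values are described in most detail below are shown from 30 bases before to 20 bases after the annotated start, from RefSeq on GRCm38.p6, 5' to 3'. Capitals mark a TOP-like run, here a C followed by at least 4 further pyrimidines starting within 3 bases of the annotated start, and the ETS-type letters CCGGAAG on either strand.
Rps27l (chr9:66946056-66946105, plus strand): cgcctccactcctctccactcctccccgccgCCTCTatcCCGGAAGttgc
Rps27 (chr3:90213629-90213678, minus strand): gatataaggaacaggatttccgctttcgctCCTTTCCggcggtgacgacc
Rps7 (chr12:28635934-28635983, minus strand): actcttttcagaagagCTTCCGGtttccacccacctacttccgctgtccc
Rps13 (chr7:116334171-116334220, minus strand): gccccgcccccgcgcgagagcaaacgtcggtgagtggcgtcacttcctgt
Rps6 (chr4:86857348-86857397, minus strand): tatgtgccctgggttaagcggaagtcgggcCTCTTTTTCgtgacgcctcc
Rpl14 (chr9:120571487-120571536, plus strand): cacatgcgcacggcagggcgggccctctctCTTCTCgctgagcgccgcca
Rpl41 (chr10:128549149-128549198, minus strand): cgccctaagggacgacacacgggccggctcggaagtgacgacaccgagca
A run of 5 to 9 pyrimidines was found in Rps27l, Rps27, Rps6 and Rpl14, and none in Rps7, Rps13 and Rpl41 or at the second listed start of Rps27l.

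Of the 77 members, 57 had a promoter in the RefSeq table (250 bases before to 50 after the start). The TOP-like run was present in 24 of the 57 (42.1%), against 13.5% of 27025 genes with a listed promoter. A run starting more than 3 bases from the annotated start was not counted, so these shares do not show which mRNAs lack a TOP motif. On either strand, CCGGAAG, the core bound by ETS factors such as GABPA, was in 42.1% of members against 9.93% of all genes, and the Sp1-type GGGCGG in 61.4% against 38.2%. The YY1-type AAGATGG was in 15.8% against 7.28%, and TATAAA in 10.5% against 15.7%. In the narrower window from 100 before to 20 after the start, the shares of members were 43.9% for GGGCGG, 29.8% for CCGGAAG, 5.26% for AAGATGG and 3.51% for TATAAA, and those of all genes were 29.4%, 6.63%, 2.56% and 7.17%. These are matches of letters and not measured binding.

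As a family, the members kept a near-constant place in the spleen transcriptome, and the 4 groups overlapped in the share of all counts. They took 5.17%, 5.29% and 4.60% of counts in controls, 5.79%, 4.84% and 4.90% with AOS, 5.45%, 4.84% and 4.43% with busulfan, and 4.85%, 4.46% and 4.90% after both treatments. AOS library 1 was the highest and busulfan library 3 the lowest. The group means were 5.02 ± 0.371%, 5.18 ± 0.533%, 4.91 ± 0.514% and 4.74 ± 0.238% (SD, n = 3 each), so each difference between groups was smaller than the larger of the 2 SDs. In bulk tissue, fewer cells of a type and less RNA per cell cannot be told apart, and a share also moves with the rest of the library. With haemoglobin and pancreatic enzyme genes taken out of the total, the means were 5.37%, 5.67%, 5.38% and 5.15% in the same order. On this measure the AOS libraries, from 5.32% to 6.22%, all lay above those after both treatments, from 4.95% to 5.30%. The means of these groups differed by more than either SD (0.486% and 0.182%). This difference was not tested.

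The spread between libraries of 1 group was the main pattern of the family level, which is the median over members of the log2 CPM (counts scaled to library totals after TMM normalization) minus the gene's mean over 12 libraries. The level was highest in busulfan library 1, at 0.20, and AOS library 1, at 0.16. It was lowest in busulfan library 3 at -0.12, busulfan+AOS library 2 at -0.11 and control library 3 at -0.11. Busulfan thus held both ends of the range. In busulfan library 1, 76 of 77 members lay above their own mean, and in AOS library 1, 69 did. In busulfan library 3 and in busulfan+AOS library 2, 8 of 77 did. The pooled SD within groups was 0.106. Every AOS library, at 0.0026 or more, lay above every library after both treatments, at -0.0018 or less, and this was not tested.

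**Figure D1:**
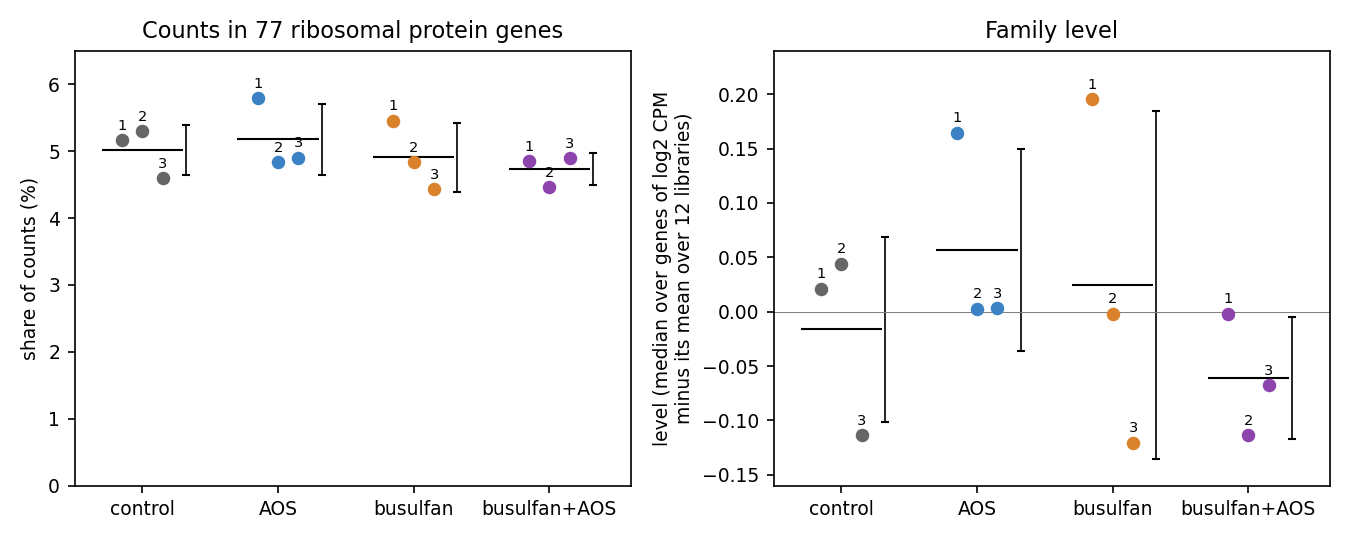
Share of counts in percent (left) and family level in log2 units (right) of the 77 ribosomal protein genes, 1 point per library with its replicate number, by group, with bars at the mean and error bars of 1 SD (n = 3). The groups overlap on the left. On the right, every AOS library (0.0026 or more) lies above every busulfan+AOS library (-0.0018 or less), and the other pairs of groups overlap. Busulfan libraries 1 and 3 stand at 0.20 and -0.12 on the right.

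Large and small subunit genes moved together across libraries. The large subunit level was 0.20 in busulfan library 1 and -0.11 in busulfan library 3, and the small subunit level 0.22 and -0.14. Over the 12 libraries, the correlation of a member with the median of the other members had a median of 0.87, and it was above 0.8 for 47 of 77 and below 0 for 3, namely Rpl21 at -0.42, Rps2 at -0.30 and Rps27l at -0.13. These correlations are descriptions that share libraries and scaling. Short genes stood apart in the same library: 101 non-members above 50 CPM, no longer than the members' median of 593 bases as implied by count and FPKM, had a level of 0.26 in busulfan library 1 and 0.01 in AOS library 1. Within the members, the correlation of the level with log2 length was -0.44 in busulfan library 1 and -0.31 in AOS library 1.

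T cell markers were high or low in some of the same libraries and not in others. Of 10 listed, 9 had a row and none was at 0, and their level was 0.48 in AOS library 1, -0.37 in control library 3 and -0.49 in busulfan library 3. It was 0.09 in busulfan library 1, where the family was highest, and 0.34 in control library 2, where the family level was 0.04. Their summed level ran from 347 to 556 CPM in controls, 462 to 611 with AOS, 299 to 468 with busulfan and 351 to 461 after both treatments. The 10 B cell markers, none at 0, summed to 3398 to 4450 CPM in controls, 4247 to 4828 with AOS, 2506 to 3574 with busulfan and 2982 to 3658 after both treatments. The part of these cells and of short transcripts in the family level was not tested.

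Rps27l was the member that differed with busulfan. It encodes a close paralogue of Rps27 and is a known target of p53 in human cells. Its level was 41.7, 37.8 and 43.7 CPM in controls, 37.0, 39.6 and 41.3 with AOS, 58.8, 55.4 and 52.4 with busulfan, and 46.2, 51.5 and 45.6 after both treatments. All 6 busulfan-treated libraries lay above all 6 others, and the 3 without AOS above the 3 with it. All 12 of its counts are whole numbers, and no near-identical copy of its coding sequence was found.

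Averaged over AOS, Rps27l rose 1.28-fold with busulfan (log2 fold change 0.36 ± 0.06 SE, adjusted p = 0.0159, edgeR's quasi-likelihood test with Benjamini-Hochberg adjustment), as the single member called where 8.23% of all genes were called (3.1% higher and 5.13% lower). At an unadjusted p under 0.05 there were 3 members, 1 higher and 2 lower, against 29.6% of all genes (13.9% higher and 15.8% lower). Against control, the rise with busulfan alone was 1.35-fold, from 41.1 ± 3.03 to 55.5 ± 3.20 CPM (SD, n = 3), with log2 fold change 0.43 ± 0.08 SE and an edgeR adjusted p of 0.0486. This was again the single member called, in a comparison that called 0.471% of all genes (0.133% higher and 0.338% lower). That call rests on the setting, since 18 of 22 alternatives lost it, with the adjusted p over all 22 between 0.000579 and 0.184. The averaged call was lost in 1 of 21, when control library 1 and AOS library 2 were both left out (edgeR adjusted p = 0.0635). In DESeq2, 2 of 77 members were called for busulfan against control, Rps27l and Rpl14, against 6.18% of all genes.

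With AOS in both groups, Rps27l was 1.22-fold higher after busulfan, with 39.3 ± 2.14 against 47.8 ± 3.22 CPM (edgeR adjusted p = 0.0609). Busulfan with AOS stood below busulfan alone by 0.22 on the log2 scale (-0.22 ± 0.08 SE, edgeR adjusted p = 0.148). The interaction of busulfan and AOS was -0.15 ± 0.11 SE (edgeR adjusted p = 0.525), so a difference between the busulfan effects with and without AOS was not shown. AOS alone gave -0.06 ± 0.08 SE (edgeR adjusted p = 0.920).

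The paralogue Rps27, a zinc-finger protein of the small subunit, was not called in any comparison by edgeR. Rps27 stood at 813, 938 and 691 CPM in controls, 1046, 893 and 873 with AOS, 932, 766 and 628 with busulfan, and 705, 677 and 717 after both treatments. The busulfan libraries overlapped the controls (log2 fold change -0.07 ± 0.14 SE, edgeR adjusted p = 0.814), and busulfan+AOS lay below all 3 AOS libraries (-0.42 ± 0.15 SE, edgeR adjusted p = 0.103). Per length, Rps27l reached 2.80 ± 0.613% of the FPKM of Rps27 in controls, 2.32 ± 0.334% with AOS, 3.997 ± 0.554% with busulfan and 3.70 ± 0.351% after both (SD, n = 3). This share ran from 1.95% to 3.41% in the 6 libraries without busulfan and from 3.44% to 4.58% in the 6 with it.

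**Figure D2:**
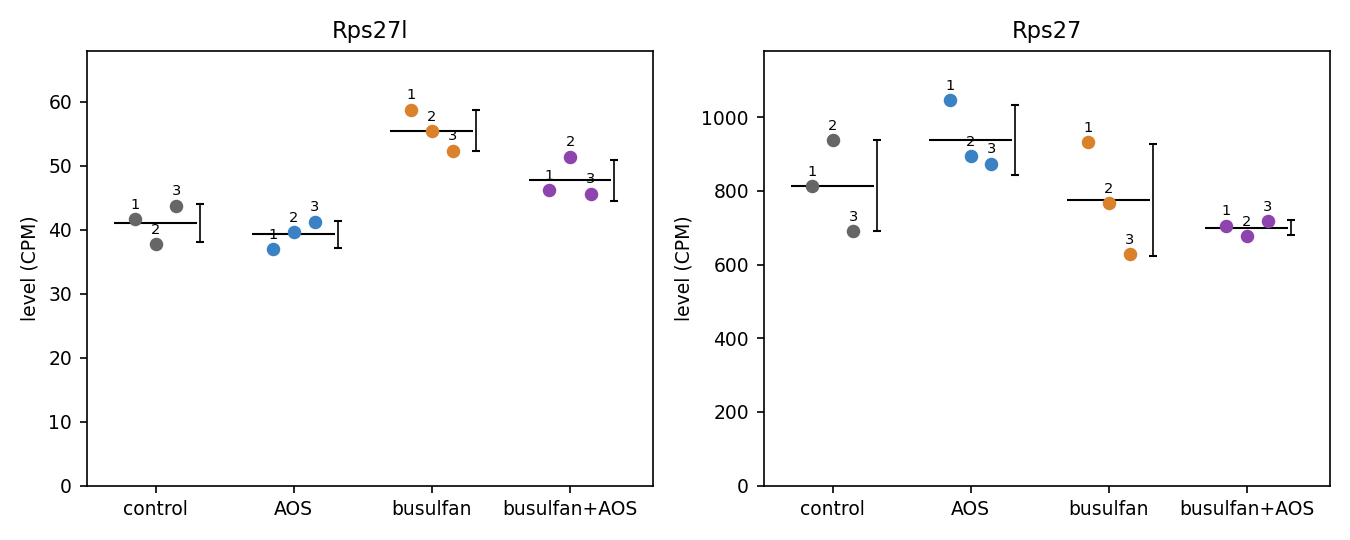
CPM of Rps27l (left) and Rps27 (right) in each library, by group, with replicate numbers, bars at the mean and error bars of 1 SD (n = 3). Rps27l lies at 45.6 CPM or more in the 6 busulfan-treated libraries and at 43.7 or less in the others, whereas Rps27 overlaps between busulfan and control.

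Of other genes linked to p53, some rose with busulfan, some fell and others were not called. In a list of 12 checkpoint genes, 10 were tested and 2 rose with busulfan against control, where 0.133% of all genes were called higher. The TNF receptor family gene Eda2r went from 1.45 ± 0.304 to 6.36 ± 0.501 CPM (log2 fold change 2.13, edgeR adjusted p = 0.0230), and Phlda3, an inhibitor of Akt, from 5.92 ± 1.15 to 13.8 ± 2.05 (1.22, edgeR adjusted p = 0.0389). Averaged over AOS, 3 rose, these and the cell cycle inhibitor Cdkn1a (1.28, edgeR adjusted p = 0.0375). Others of the list fell, the p53 inhibitor Mdm4 by 0.21 on the log2 scale and the nucleotide reductase subunit Rrm2b by 0.31 (edgeR adjusted p of 0.0364 and 0.0308). For busulfan against control, the Eda2r call was lost in 6 and the Phlda3 call in 14 of 22 alternatives, and averaged over AOS the calls of Cdkn1a, Mdm4 and Rrm2b were lost in 11, 12 and 10 of 21. The list's median was 0.30 beside -0.01 over all genes for busulfan against control, and 0.12 beside -0.00 averaged over AOS. The rest of the tested list, among them Mdm2, Ccng1 and Bax, was not called in either comparison by edgeR. A link between this list and Rps27l was not tested.

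Markers of several cell types differed between the same libraries. The 9 NK and cytotoxic cell markers, none at 0, summed to 100.8 to 171 CPM in controls, 115 to 197 with AOS, 65.9 to 94.5 with busulfan and 73.5 to 82.7 after both treatments, so that the 6 busulfan-treated libraries lay below the 6 others. The 14 neutrophil markers, none at 0, summed to 642 to 1245 CPM in controls, 956 to 1389 with AOS, 1884 to 10221 with busulfan and 872 to 2354 after both. The 14 mitosis genes, none at 0, summed to 2525 to 3966 CPM in controls, 1976 to 2867 with AOS, 3219 to 4034 with busulfan and 3012 to 4520 after both. The part of these cells in the Rps27l result was not tested.

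For busulfan against control, the log2 fold changes of members ran from -1.02 for Rps18, a row of only 120 counts, to 0.63 for Rpl14. The median log2 fold change of the 77 members was 0.05, beside -0.01 over all genes, with 56 positive and 21 negative, and it was -0.05 without busulfan library 1 and 0.12 without busulfan library 3. At an unadjusted p under 0.05 there were 3 members, all positive, against 20.6% of all genes (9.1% higher and 11.5% lower). Those beside Rps27l were Rpl14 (edgeR adjusted p = 0.134) and Rpl41 (edgeR adjusted p = 0.151). Rpl41, the shortest ribosomal protein, was at 932, 828 and 834 CPM in controls, 1115, 949 and 977 under AOS, 1245, 992 and 967 under busulfan, and 932, 945 and 856 after both. No busulfan library overlapped the controls. Groups did not overlap for 4 members that were higher and 1 that was lower, against 11.0% and 12.6% of all genes.

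AOS against control called no gene by edgeR or limma-trend (0.0% of genes), and DESeq2 called no member, against 0.427% of all genes. At an unadjusted p under 0.05, 1 member was found, lower, against 5.93% of all genes (3.02% higher and 2.9% lower). It was Rpl10, which sits at the subunit interface and is needed for joining of the subunits. Rpl10 was at 35.6, 36.0 and 34.3 CPM in controls, 24.7, 26.9 and 28.8 under AOS, 35.7, 29.5 and 32.3 under busulfan, and 32.7, 25.3 and 32.5 after both (log2 fold change for AOS against control -0.40 ± 0.11 SE, edgeR adjusted p = 0.633). The groups did not overlap, but the adjusted p did not pass, and this row, at 31.5 FPKM, has 9 near-identical copies. Groups did not overlap for 3 members that were higher and 1 that was lower, against 5.63% and 5.19% of all genes. The median of the members was 0.08, with 61 of 77 positive, and it was 0.04 without control library 3 or without AOS library 1. Rps26, a small subunit protein near the mRNA exit, was at 820, 736 and 722 CPM in controls and 933, 835 and 794 under AOS, and these overlapped.

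Busulfan with AOS against AOS gave the lowest median of the comparisons between groups, -0.13 beside 0.00 over all genes, with 64 of 77 members negative. No member was called by edgeR, where 5.81% of all genes were (2.36% higher and 3.45% lower). With an unadjusted p under 0.05 there were 10, 9 of them lower, against 25.6% of all genes (12.3% higher and 13.4% lower). For 22 of 77 members (28.6%), all 3 libraries after both treatments lay below all 3 AOS libraries, against 17.0% of all genes, and for 2 members they lay above, against 14.6%. Without AOS library 1 the median was -0.08. In the same libraries the 14 heat shock genes, none at 0, summed to 7009 to 9906 CPM with AOS and 3854 to 4245 after both, and the 9 liver genes, none at 0, to 49.9 to 215 and 9.86 to 19.0 CPM. Their part in the family median was not tested. DESeq2 called 4 of 77 members, Rps7, Rps13 and Rps27 lower and Rps27l higher, against 11.4% of all genes, and limma-trend called Rps27l, against 4.97%.

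Rps13, a small subunit protein with 5 near-identical copies, was at 34.2, 28.0 and 28.4 CPM with AOS and 26.0, 16.5 and 22.5 after both (log2 fold change -0.48 ± 0.15 SE, edgeR adjusted p = 0.0808). Its busulfan libraries, at 30.3, 27.0 and 32.8, also lay above those after both (-0.47 ± 0.15 SE, edgeR adjusted p = 0.109). The groups did not overlap in either comparison, and the adjusted p passed in neither.

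Busulfan with AOS against busulfan also had a negative median, -0.09 beside 0.00 over all genes, with 64 of 77 negative. No member was called by edgeR, where 3.02% of all genes were (1.53% higher and 1.5% lower). With an unadjusted p under 0.05 there were 7, all lower, against 21.2% of all genes (10.7% higher and 10.5% lower). Groups did not overlap for 1 member that was higher and 10 that were lower, against 14.3% and 12.9% of all genes. In this comparison DESeq2 called Rps13 alone, against 7.5% of all genes, and limma-trend called none, against 1.98%. Without busulfan library 1 this median was -0.00. Rpl28, a large subunit protein that yeast lacks, was at 625, 506 and 504 CPM with busulfan and 495, 450 and 450 after both (log2 fold change -0.23 ± 0.10 SE, edgeR adjusted p = 0.201).

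Busulfan with AOS against control called no member by edgeR, DESeq2 or limma-trend, where edgeR called 0.875% of all genes (0.259% higher and 0.617% lower), DESeq2 4.82% and limma-trend 0.511%. At an unadjusted p under 0.05 there was 1 member higher and 1 lower, against 17.5% of all genes (7.85% higher and 9.66% lower). Groups did not overlap for 2 members that were higher and 3 that were lower, against 10.8% and 12.2% of all genes, and the median was -0.06. The interaction of busulfan and AOS called none by edgeR (0.484% of all genes, 0.239% higher and 0.245% lower). At an unadjusted p under 0.05 there were 7 members, all negative, against 16.6% of all genes (8.12% higher and 8.48% lower), and the median was -0.16 beside 0.01. DESeq2 called Rpl14 and Rpl41 for the interaction, against 4.36% of all genes. Without busulfan library 1 the interaction median was -0.08, and without control library 2 that of busulfan with AOS against control was -0.01. Because several of these comparisons share libraries, their medians are not independent of each other.

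**Figure D3:**
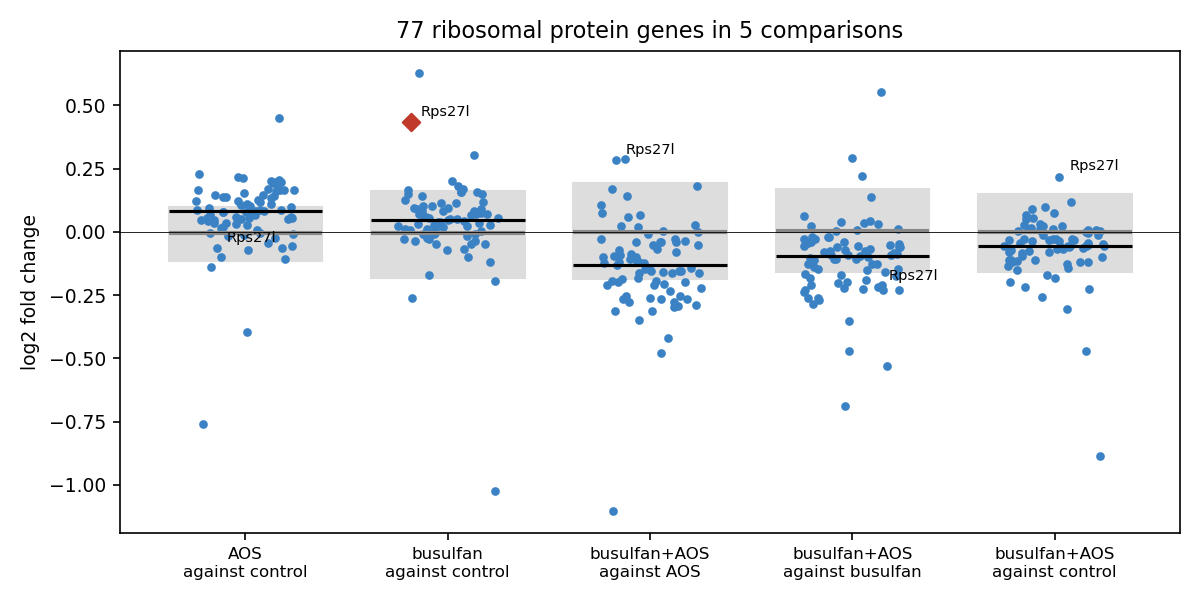
Log2 fold change of each of the 77 members (blue points, red diamond where the edgeR adjusted p is under 0.05) in 5 comparisons, with the members' median (black line), the median of all genes (grey line) and their middle 50% (grey box). Rps27l in busulfan against control is the only diamond, and the members' medians run from -0.13 to 0.08, inside the grey boxes.

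Among genes with defined roles within the ribosome, the P stalk, 5S carriers and exit tunnel had no member called by edgeR. The P stalk, which recruits elongation factors, is made of Rplp0, Rplp1 and Rplp2. Rplp0, a common reference gene, was at 1953, 2015 and 1922 CPM in controls, 2071, 1978 and 1901 with AOS, 2289, 1991 and 1815 with busulfan, and 1986, 2003 and 1932 after both treatments. Busulfan library 1 was the highest and busulfan library 3 the lowest, and its coefficient of variation (CV) over the 12 libraries was 5.78%. Its smaller partners varied more, with 11.95% for Rplp1, between 464 and 676 CPM, and 11.2% for Rplp2, between 396 and 603 CPM.

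The 5S RNA carriers Rpl5 and Rpl11 did not pass in any comparison. Rpl5 ranged from 1114 CPM in busulfan library 3 to 1370 in control library 2, and Rpl11 from 547 in busulfan library 3 to 708 in busulfan library 1. For busulfan against control their log2 fold changes were -0.10 ± 0.08 and 0.07 ± 0.09 SE (edgeR adjusted p of 0.490 and 0.692). Rps19, the gene most often mutated in Diamond-Blackfan anaemia, was at 389, 468 and 337 CPM in controls and 489, 399 and 365 with busulfan, and the groups overlapped. Of 18 members tied to that anaemia, none was called by edgeR in any of the 7 comparisons, with 0 to 4 at an unadjusted p under 0.05, and DESeq2 called Rps7 and Rps27 lower in busulfan with AOS against AOS. Rpl3, which lies near the peptidyl transferase centre, ranged from 818 to 996 CPM, and Rpl39, in the exit tunnel, from 214 to 258 CPM.

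The members with the steadiest levels were large subunit proteins. Rpl4 had a CV of 3.59%, from 1660 to 1897 CPM, followed by Rpl7a with 3.65% and Rpl6 with 4.33%. The median CV was 9.41% over the members and 14.4% over all genes tested, which were not matched to the members for level. Of the 77 members, 65 were under 15%. The 4 above 20% were Rps7, Rps18, Rpl14 and Rps12, and the counts of these 4 rows are not whole numbers in at least 11 of 12 libraries.

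Per length, the members differed widely as listed. FPKM values, which divide by gene length and library size, averaged 3748 for Rps27, 3039 for Rpl41 and 2803 for Rpl23a, with a median of 1228 over the members. At the other end stood Rps18 at 1.58, Rpl21 at 3.75 and Rpl29 at 7.46. Although a ribosome needs 1 of each protein, 12 members were listed under 100 FPKM and 45 above 1000. All 12 of the low rows had counts that were not whole in at least 11 of 12 libraries. Over the whole family, 16 members had whole counts (within 1e-06) in every library and 45 in none (58.4%, against 15.98% of all genes). The order of levels describes these rows as counted.

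**Figure D4:**
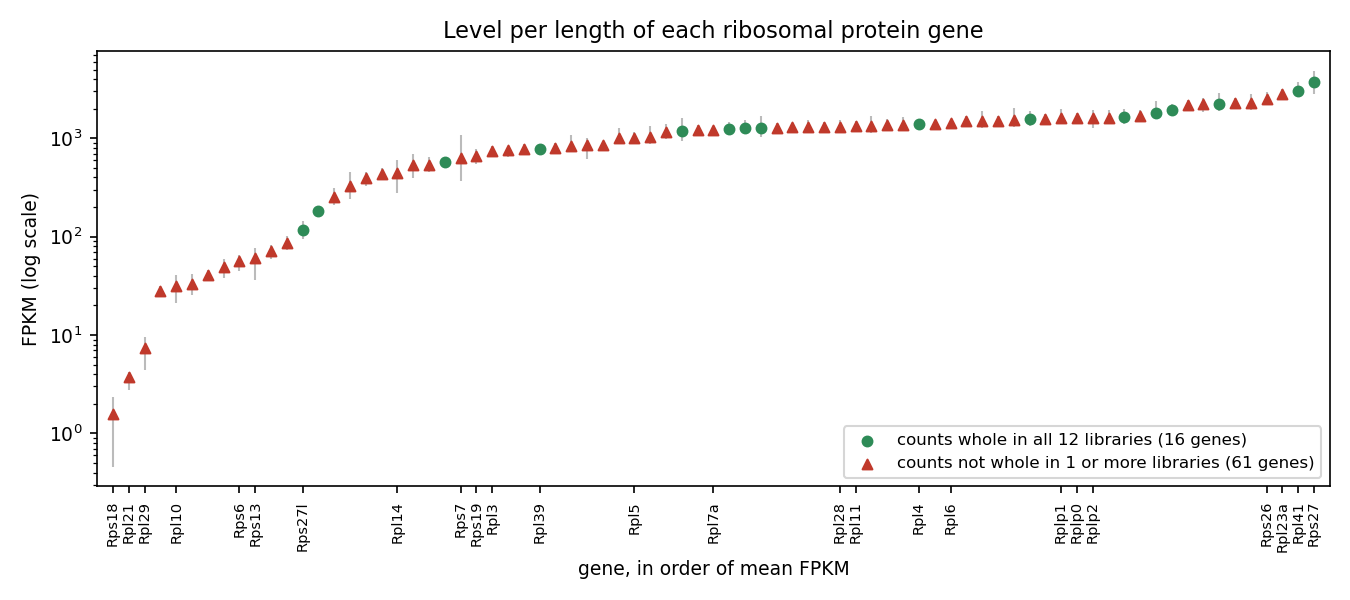
Mean FPKM over 12 libraries of each of the 77 members on a log scale, in ascending order, with lines from the lowest to the highest library and labels for members described in the text. Green circles are 16 genes whose counts are whole in every library, which lie at 116 FPKM or more, and red triangles are 61 genes whose counts are not, which include every value under 100.

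Most members have near-identical copies elsewhere in the genome. Each member's longest coding sequence was aligned to all transcripts of GENCODE M21 on GRCm38, and a copy was another gene matching at 95% identity or more over at least 80% of it. Of the 77 members, 70 had at least 1 copy, with a median of 5 and up to 57 for Rpl21. The 12 members under 100 FPKM all had copies, with a median of 11. None was found for Rps27l, Rpl41 and Rps19, among others. The coding sequences searched for Rps27l, Rpl41 and Rps19 were 315, 138 and 636 bases long. A copy of a shorter coding form could fall under the 80% limit, so copies of these genes may have been missed.

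For some members a pseudogene row held most of the joint level. Rps6, the substrate of S6 kinase, was listed at 57.1 FPKM, while Rps6-ps4, 100% identical over the coding sequence, was at 2237 FPKM and held 95.7% of the joint CPM of both rows. Rpl34 was at 40.8 FPKM against 1505 for Rpl34-ps1 (99.4% identical), and Rpl29 at 7.46 against 557 for Gm8210 (99.4% identical). The joint level of Rps6 and Rps6-ps4 ran from 1434 to 1739 CPM over the 12 libraries with a CV of 5.32%, against 13.1% for the Rps6 row alone. The Rps6 row was at 68.3, 76.5 and 72.7 CPM in controls, 75.2, 70.8 and 55.6 under AOS, 70.8, 57.5 and 53.4 under busulfan, and 82.7, 66.2 and 73.5 after both, and the groups overlapped.

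Rpl14, a large subunit protein, varied opposite to its pseudogene row. Rpl14 held 329, 249 and 293 CPM in controls, 478, 335 and 376 with AOS, 505, 439 and 403 with busulfan, and 321, 397 and 215 after both treatments. The Rpl14-ps1 row, 98.9% identical, ran from 158 CPM in AOS library 1 to 338 in control library 2, and was high where Rpl14 was low. The correlation between the 2 rows over 12 libraries was -0.93. Their sum ran from 537 to 669 CPM, with a CV of 6.52%, against 24.4% for Rpl14 and 23.96% for Rpl14-ps1.

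The fold change of Rpl14 shrank when both rows were summed, an alternative added after seeing the data. For busulfan against control it was 0.63 ± 0.21 SE for the row (edgeR adjusted p = 0.134) and 0.15 ± 0.08 SE for the sum (edgeR adjusted p = 0.304). For the interaction it was -0.98 ± 0.29 SE for the row and -0.18 ± 0.11 SE for the sum (edgeR adjusted p of 0.133 and 0.434). Summing the 4 members Rpl14, Rpl29, Rpl34 and Rps6 with their pseudogene rows left Rps27l as the single member called in the same 2 comparisons.

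**Figure D5:**
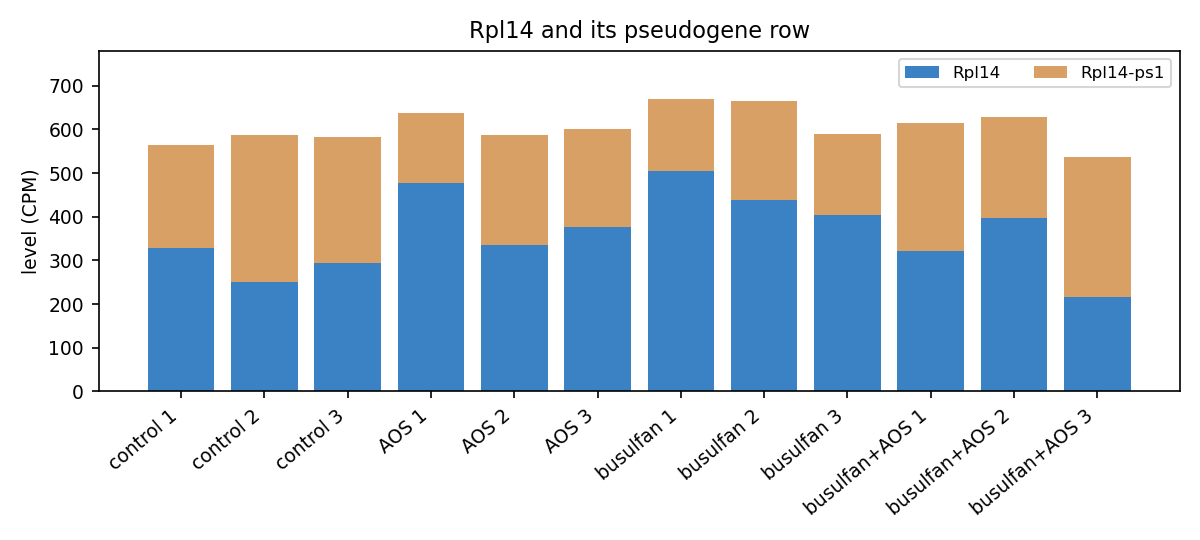
CPM of the Rpl14 row (blue) and of its pseudogene row Rpl14-ps1 (tan), stacked, in each of the 12 libraries. The blue part runs from 215 to 505 CPM, while the total stays between 537 and 669.

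Copies without a row of their own lay inside other genes of the table. Only rows averaging at least 50 CPM, with counts not whole in any of 12 libraries and outside chromosome 18, were kept. A level of 50 CPM or more and counts that are not whole were thus set by this choice. Naaladl2, a peptidase-like gene, was listed at 740 CPM with counts that were not whole in any library, and its span holds Gm7536 (chr3:24333068-24333511, plus strand, GRCm38), 100% identical to the coding sequence of Rpl27a, a member listed at 49.1 FPKM. Pdzd8, at 842 CPM, spans Rps12-ps3. Pnpla7, at 637 CPM, and Wnk3, at 557 CPM, each span a copy of Rpl21, at 99.6% and 99.4% identity. Wdr66, at 331 CPM, spans a copy of Rpl35a. How the deposited counting placed reads of such copies is not given here, and their share in these rows was not tested.

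Naaladl2 was also the non-member most like the family. The 5 non-members with the highest correlation of log2 CPM with the family level over 12 libraries were Naaladl2 at 0.98, Tpt1 at 0.93, Grcc10 at 0.93, Ddx31 at 0.92 and Akr7a5 at 0.92. Tpt1 encodes the translationally controlled tumour protein, itself a TOP mRNA, and averaged 3023 CPM. These values describe the 12 libraries, which share their scaling with the members.

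Rps7 had the widest spread, with a CV of 41.0%. This small subunit protein can bind Mdm2. Its row was at 838, 603 and 308 CPM in controls, 512, 601 and 920 with AOS, 632, 580 and 316 with busulfan, and 320, 309 and 318 after both treatments. Control library 3, busulfan library 3 and all 3 libraries after both treatments lay near each other, between 308 and 320 CPM, and the other 7 between 512 and 920. For busulfan with AOS against AOS the log2 fold change was -1.10 ± 0.35 SE (edgeR adjusted p = 0.0850). Rps7 had 7 near-identical copies and counts that were not whole in any library, and their part in this spread was not tested. Rps18, with a CV of 40.2%, was at 0.884, 0.763 and 1.08 CPM in controls, 0.839, 0.605 and 0.185 under AOS, 0.629, 0.405 and 0.337 under busulfan, and 0.503, 0.598 and 0.867 after both. The busulfan libraries lay below all controls (log2 fold change -1.02 ± 0.48 SE, edgeR adjusted p = 0.261), and the AOS group overlapped every other. The Rps18 row held only 120 counts over the 12 libraries, so its values are near the floor. It also had 6 near-identical copies and counts that were not whole in any library.

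The wider machinery of ribosome production was examined through lists of genes. Of 48 ribosome biogenesis factors, 2 rose in busulfan with AOS against AOS, where 2.36% of all genes were called higher, with a list median of 0.05. These were Ltv1, a factor for export of the small subunit, from 34.7 ± 2.01 to 45.8 ± 0.937 CPM (edgeR adjusted p = 0.0122), and Ncl, the nucleolar protein nucleolin, from 578 ± 16.9 to 735 ± 52.0 CPM (edgeR adjusted p = 0.0330). Averaged over AOS, Gnl3 and Ltv1 rose with busulfan, by 0.21 and 0.16 on the log2 scale (edgeR adjusted p of 0.0440 and 0.0473), and each call was lost in 14 of 21 alternatives. Those against AOS were lost in 2 of 22 for Ltv1 and 8 of 22 for Ncl. None was called for busulfan against control, by edgeR, where 6 had an unadjusted p under 0.05. Ltv1 did not rise in that comparison, with 40.6 ± 0.939 CPM in controls and 38.2 ± 1.05 with busulfan (SD, n = 3). Its averaged rise thus came from the libraries with AOS.

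Of 20 genes of RNA polymerase I and its factors, 1 rose and 1 fell in busulfan with AOS against busulfan, where 1.53% of all genes were called higher and 1.5% lower. Both encode subunits of the selectivity factor SL1, Taf1b from 19.0 ± 0.964 to 28.2 ± 0.749 CPM (edgeR adjusted p = 0.00988) and Taf1c from 27.7 ± 3.50 to 20.3 ± 1.29 CPM (edgeR adjusted p = 0.0367). Of 23 MYC and TOR regulators, the mTOR subunit gene Mlst8 fell in that comparison, from 23.5 ± 2.99 to 14.1 ± 1.59 CPM (edgeR adjusted p = 0.0265). Against AOS, the MYC antagonist Mxd4 fell, from 154 ± 4.64 to 110 ± 10.8 CPM (edgeR adjusted p = 0.0470), where 3.45% of all genes were called lower. Of 22 alternatives, 1 lost the call of Taf1b, 13 that of Taf1c, 6 that of Mlst8 and 16 that of Mxd4.

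Of 27 genes listed for initiation and other steps of translation, 4 rose with busulfan averaged over AOS, where 3.1% of all genes were called higher. The list median was 0.11 beside -0.00 over all genes. The 4 were Eif2b1, Eif5, Eif3b and the release factor gene Etf1. In the order Eif2b1, Eif5, Etf1, Eif3b they came with log2 fold changes of 0.20, 0.28, 0.19 and 0.17 and edgeR adjusted p of 0.0312, 0.0365, 0.0474 and 0.0475. In the same order these calls were lost in 9, 12, 17 and 16 of 21 alternatives, and the count ran from 0 to 10. The start codon selection factor Eif1 fell in busulfan with AOS against busulfan, from 588 ± 60.7 to 454 ± 24.3 CPM (edgeR adjusted p = 0.0358), a call lost in 9 of 22 alternatives. Of 18 other TOP mRNAs, for translation factors and further proteins such as Tpt1, none was called in any comparison by edgeR, with 0 to 4 at an unadjusted p under 0.05. The 8 tested genes of a further list also had none called, with 0 or 1 at an unadjusted p under 0.05. It holds ribosomal genes whose names fall outside the pattern, among them Rps3a1, Fau and Rack1, and the Rps19-binding protein gene Rps19bp1.

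The mitochondrial ribosome, is built from a separate set of nuclear genes, of which 78 were tested. Averaged over AOS, 3 of the 78 rose with busulfan, against 1 of 77 cytosolic members and 3.1% of all genes, and their median was 0.09 against -0.04. Mrpl51, Mrpl47 and Mrpl33 had log2 fold changes of 0.28, 0.24 and 0.24 (edgeR adjusted p of 0.0301, 0.0431 and 0.0490). These calls were lost in 8, 15 and 14 of 21 alternatives, and the count ran from 0 to 7. In busulfan with AOS against busulfan, 3 fell, namely Mrpl38, Mrps21 and Mrps6, where 1.5% of all genes were called lower. These calls were lost in 6, 7 and 16 of 22 alternatives, and the medians of both sets were -0.09. The difference between the 2 sets was not tested.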

How the data were processed

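RNA was sequenced from 12 mouse spleen libraries, 3 per group by the submitters' labels. The authors deposited expected counts and FPKM values per gene and library. The genome build is mm10, per the submitters' processing notes. For the aligner, counter, annotation and strandedness, the answer is not given in the sources used here. Of the count values, 75.7% are whole (within 1e-06), and 8 columns of averages were left out.

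Rounded counts went into edgeR 4.0.16 (R 4.3.3): filterByExpr (15079 genes), TMM factors of 0.965 to 1.04, 1 mean per group over all 12 libraries, glmQLFit and a two-sided glmQLFTest, with a biological CV of 18.9%. Adjusted p-values are Benjamini-Hochberg over all genes, and a gene was called under 0.05. An SE is the log2 fold change divided by the square root of F. The fits were also run on simulated data, and the outcome is not reported here. Alternatives were DESeq2 1.42.0, limma 3.58.1 on log2(FPKM + 1), and other scalings, filters, library sets and a replicate block. Totals were 15051297 to 16241883 counts, and SEs and p-values cover the variation between libraries.

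Copies were found with BLAST 2.17.0 on GENCODE M21, and copy rows of at least 1000 summed counts entered the summed alternative. Promoters are from RefSeq on GRCm38.p6. Python 3.11.15, pandas 2.3.3, numpy 2.4.6, scipy 1.17.1 and matplotlib 3.10.9 were used.

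Named members are the 4 with the smallest p in each comparison of 2 groups, those of the P stalk, 5S carriers and named paralogues, 6 chosen by role, the 3 highest and 3 lowest in FPKM and in CV, and those called. From other lists, the 2 genes with the smallest p are named where a list has a called gene. Further called list genes, Rps12, copy rows and rows spanning copies were named after their values were seen. The members and lists were chosen with earlier results of these data known. None of 14 listed snoRNA host genes had a row.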

Additional observations from a re-analysis of the deposited data

Results flagged for a closer look

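Ltv1 and Taf1b, both outside the family, are given here because the effect of busulfan differed between libraries with and without AOS by the interaction term. For Ltv1 the interaction was 0.49 on the log2 scale (edgeR adjusted p = 0.0408), with 40.6 ± 0.939 CPM in controls, 34.7 ± 2.01 in AOS, 38.2 ± 1.05 in busulfan and 45.8 ± 0.937 in busulfan+AOS libraries (SD, n = 3). For Taf1b it was 0.63 (edgeR adjusted p = 0.0492), with 24.8 ± 2.49, 23.7 ± 0.593, 19.0 ± 0.964 and 28.2 ± 0.749 CPM in the same order. Both calls were lost under most alternatives, 14 of 21 for Ltv1 and 15 of 21 for Taf1b.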

How the results depend on the processing

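No called value changed sign under any alternative. For busulfan against control, the count of 1 member called became 0 with RLE scaling, with TMM without members, haemoglobin and acinar genes, without a filter on low counts, with the replicate block, with only the groups compared, with limma-trend, and without control 1 and AOS 2. It was 2 with DESeq2, and 0 to 1 when each library was left out. For busulfan+AOS against AOS the count of 0 became 4 with DESeq2 and 1 with only the groups compared or limma-trend, with 0 to 1 over left-out libraries. It became 1 with DESeq2 for busulfan+AOS against busulfan and 2 with DESeq2 for the interaction. For busulfan averaged over AOS it was 1 to 2 over left-out libraries and 0 without control 1 and AOS 2. The replicate block changed no other count of members called. The interaction median was -0.054 with limma-trend. Without haemoglobin and acinar genes the share in busulfan+AOS was 5.15%. Its libraries, at 5.30% or less, then lay below all AOS libraries, at 5.32% or more. With 1 library left out, the median log2 fold change ran from -0.05 to 0.12 for busulfan against control, from -0.16 to -0.08 for busulfan+AOS against AOS, and from -0.16 to -0.00 for busulfan+AOS against busulfan, so the first changed sign. For busulfan averaged over AOS it ran from -0.08 to -0.01. In the narrower promoter window the shares of members were 43.9% for GGGCGG, 5.26% for AAGATGG and 3.51% for TATAAA. Same-numbered libraries had correlations of deviations from -0.07 to 0.26, so the numbers were not read as pairs. With 3 libraries a group and rows that may share reads with copies, group differences in the family level are uncertain. The group means of this level ran from -0.06 in busulfan+AOS to 0.06 in AOS, beside a pooled SD of libraries within groups of 0.106. They were not tested, so that SD does not decide whether the means differ. The libraries of these 2 groups did not overlap, with -0.0018 or less in busulfan+AOS and 0.0026 or more in AOS.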
